A study of Mus musculus with 4 samples.

Results

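Classical monocytes are the short-lived monocytes that leave the bone marrow, circulate in blood and enter inflamed tissue, where they can become macrophages or dendritic cells. In the mouse they carry high surface Ly6C, part of which is encoded by Ly6c2, and they follow the chemokine Ccl2 through its receptor Ccr2. They were defined here by detection of transcripts, a cell barcode counting as positive for a gene when its value was above 0. A member had Ly6c2 and Ccr2, at least 1 of 4 identity genes (F13a1, Vcan, Ms4a4c and Fn1), fewer than 2 of the complement genes C1qa, C1qb and C1qc, which mark macrophages, and none of Cd3d, Cd3e, Cd3g, Cd79a, Cxcr2 and Cd209a, which mark T cells, B cells, neutrophils and dendritic cells. The rule was applied to the libraries of sorted CD45-positive cells and kept 408 of 15023 barcodes, out of 25315 barcodes in the whole series.

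The cells came from lungs of female C57BL/6 mice, 8 weeks old, that had received 150000 HKP1 cells through the tail vein. HKP1 is a mouse lung adenocarcinoma line. Mice of both groups received these cells, and lung without tumour was not analysed here. Mice were grouped on day 6 by bioluminescence. The 4 Gy group was given 4 Gy on each of 3 consecutive days, from day 10 to day 12, and the 0 Gy group was handled as a mock treatment with 0 Gy. After 24 to 48 h, live cells from the lungs (4 mice in each dose group) were sorted on CD45, and 10x Genomics 3′ single-cell libraries were made. The labels do not tie cells to mice, and there was 1 library for each dose and sort. The comparison is therefore 4 Gy against 0 Gy between 2 libraries, with no replicate and no test. The cells of 1 library are not replicates, and every interval below covers counting error only.

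The CD45-positive libraries held 36423571 unique molecular identifiers (UMIs, counted transcript molecules) in 9608 barcodes at 4 Gy, and 24045901 UMIs in 5415 barcodes at 0 Gy. Median depth was 2606 UMIs per barcode at 4 Gy and 3096 UMIs at 0 Gy. The 2 libraries shared 10 barcode sequences, and none of them belonged to a classical monocyte. In the libraries of CD45-negative cells, 1 barcode at 4 Gy and 1 barcode at 0 Gy met the rule.

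Classical monocytes made up a like share of leukocytes at both doses. They numbered 261 of 9608 barcodes at 4 Gy, or 2.72% (exact binomial 95% interval 2.40% to 3.06%), and 147 of 5415 barcodes at 0 Gy, or 2.71% (2.30% to 3.18%). The ratio of the shares was 1.0, with an exact conditional 95% interval of 0.814 to 1.23. Counted among barcodes without Cd3d, Cd3e, Cd3g and Cd79a, which leaves out T and B cells, they were 8.59% of 3040 at 4 Gy and 9.99% of 1472 at 0 Gy, a ratio of 0.860. When every barcode was first thinned to 1000 UMIs and the rule applied again, 122 barcodes at 4 Gy and 56 at 0 Gy met it. The ratio of the classical monocyte shares was then 1.24 (0.893 to 1.73). The value thus moved with the depth at which the rule was applied, though this interval holds 1.

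A classical monocyte was among the deeper cells of its library. Members had a median of 5276 UMIs at 4 Gy, with a range of 713 to 26824, and of 6240 UMIs at 0 Gy, with a range of 1009 to 15479. Their UMIs summed to 1416204 at 4 Gy and 896654 at 0 Gy, and all levels below are CPM, the UMIs of a gene over this sum scaled in the usual way. The median mitochondrial share was 1.93% at 4 Gy and 1.81% at 0 Gy. Scrublet, which scores likely doublets, marked 3 members at 4 Gy and 0 at 0 Gy.

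The genes of the rule describe the members and are no result. Ly6c2 stood at 1280.2 CPM at 4 Gy and 1342 CPM at 0 Gy, and Ccr2 at 998 CPM at 4 Gy and 901 CPM at 0 Gy. Among the identity genes, Ms4a4c, a membrane protein of monocytes, was found in 88.9% of members at 4 Gy and 95.2% at 0 Gy. Fn1, which encodes the matrix protein fibronectin, was found in 83.5% and 74.8%, and F13a1, which encodes a subunit of a clotting factor that crosslinks fibrin, in 75.1% and 70.7%. Vcan, the gene of the matrix proteoglycan versican, was found in 42.1% of members at 4 Gy and in 19.7% at 0 Gy. All 4 identity genes were found together in 82 members at 4 Gy (31.4%) and in 27 at 0 Gy (18.4%).

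The edges of the rule were uneven. Just inside, 32 members at 4 Gy and 29 at 0 Gy had a single identity gene, with Lyz2, the lysozyme gene of myeloid cells, at 14280 CPM and 8801 CPM. Just outside, 84 barcodes at 4 Gy and 47 at 0 Gy met every other condition without an identity gene, and their Lyz2 was 1148 CPM and 740 CPM beside 2474 CPM and 1850.0 CPM of Nkg7, a gene of killer lymphocytes. At the other edge, 12 members at 4 Gy and 6 at 0 Gy had 1 C1q gene, with Apoe, a lipid carrier of macrophages, at 3520 CPM and 4255 CPM. The barcodes left out for 2 or 3 C1q genes numbered 25 at 4 Gy and 5 at 0 Gy, with Apoe at 3600.0 CPM and 14410 CPM.

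Markers outside the rule put most of the members with the monocytes. Lyz2 was found in 97.3% of members at 4 Gy and 95.2% at 0 Gy, at 30913 CPM and 34351 CPM, against 1693 CPM and 1260 CPM in B cells. Plac8, a gene of circulating monocytes, stood at 4415 CPM and 4441 CPM, and Csf1r, the receptor for macrophage growth factor, at 476 CPM and 522 CPM. Ace and Treml4, which mark the nonclassical monocytes that patrol vessels, stood at 74.1 CPM and 43.8 CPM in members at 4 Gy and at 104 CPM and 60.2 CPM at 0 Gy. In nonclassical monocytes, chosen by a rule of their own, Ace and Treml4 stood at 881 CPM and 464 CPM at 4 Gy and at 657 CPM and 480 CPM at 0 Gy. At least 2 of Ace, Adgre4, Treml4 and Eno3 were found in 35 members at 4 Gy (13.4%) and 34 at 0 Gy (23.1%).

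**Figure D1:**
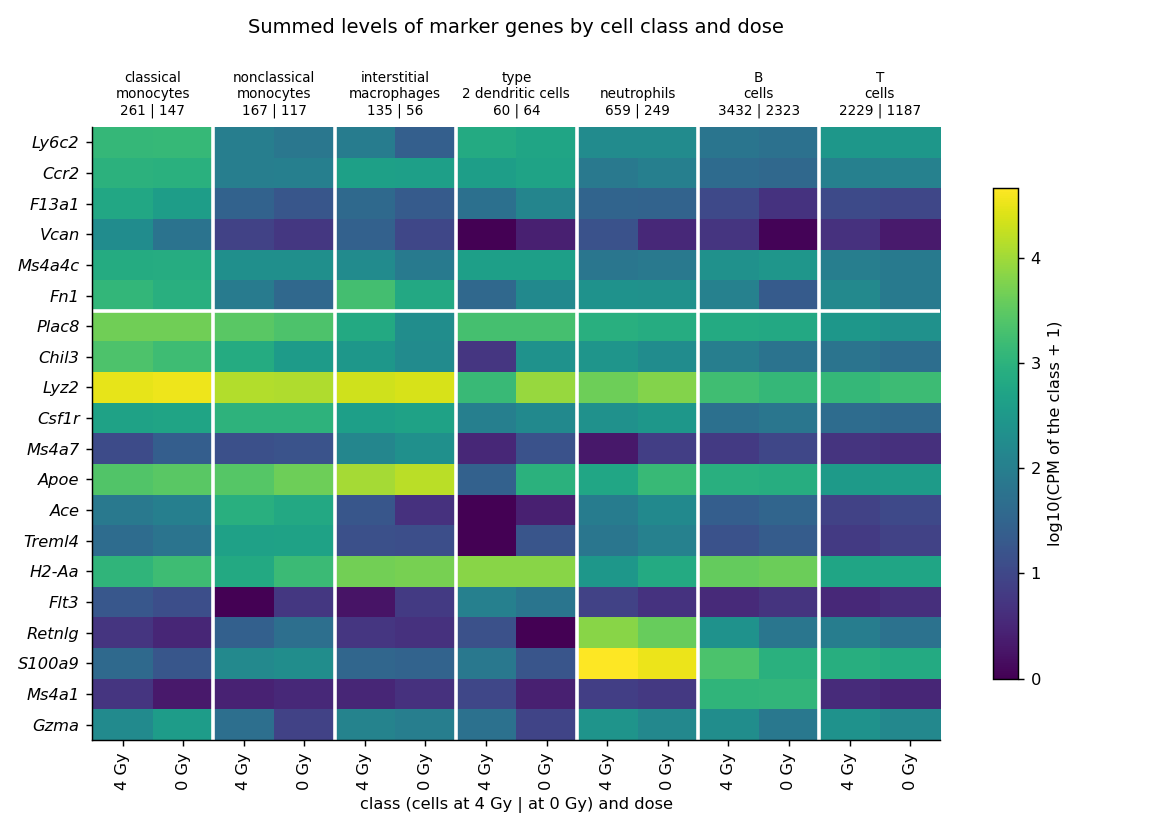
Summed level of 20 marker genes, as log10(CPM of the class + 1), in 7 cell classes chosen by rules on transcripts, with 4 Gy left of 0 Gy in each class and the number of cells above it. The first 6 rows are genes of the rule for classical monocytes, whose Lyz2 stood at 30913 CPM at 4 Gy and 34351 CPM at 0 Gy.

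A few members went against the label. Fewer than 10 Lyz2 UMIs, or at least 3 of 19 genes of T and natural killer (NK) cells, were found in 15 members at 4 Gy (5.75%) and 13 at 0 Gy (8.84%). These cells held 217 of 237 Gzma UMIs at 4 Gy and 328 of 336 at 0 Gy, Gzma encoding a protease of killer cells. The T and NK list summed to 724 CPM over all members at 4 Gy and 1325 CPM at 0 Gy, and to 99.4 CPM and 221 CPM without these cells. Gzma is on the list that helped to pick these cells, so these values follow partly from that choice. Cd3d, Cd3e and Cd3g were at 0, as the rule requires. B cell, neutrophil, platelet and red cell, endothelial, and epithelial and stromal lists summed to between 23.3 CPM and 309 CPM at 4 Gy and between 15.6 CPM and 338 CPM at 0 Gy. The alveolar macrophage list summed to 2328 CPM and 1690.0 CPM, nearly all of it Chil3, which classical monocytes also make, with Marco, Krt79, Fabp1 and Cidec at 0. At least 10 UMIs of Siglech, which marks plasmacytoid dendritic cells, were found in 3 members at 4 Gy and 2 at 0 Gy. Results below are given again without these 15 and 13 cells, called doubted from here on, where that changes them.

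Few genes differed between the doses. Of 7189 genes with at least 30 UMIs over both libraries, 316 were at least 1.5-fold higher at 4 Gy (4.40%) and 179 at least 1.5-fold lower (2.49%), on the scale of log2(CPM + 10). Without the doubted cells the counts were 324 (4.70%) and 177 (2.57%) of 6892 genes. The median log2 ratio over all measured genes was 0.03. The share past 1.5-fold was 5.90% higher and 6.44% lower in nonclassical monocytes, and 3.99% higher and 3.55% lower in neutrophils. It was 7.35% and 4.83% in interstitial macrophages, 10.8% and 6.10% in type 2 dendritic cells, and 1.21% and 0.251% in B cells. These shares also depend on how many cells and UMIs a class holds.

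**Figure D2:**
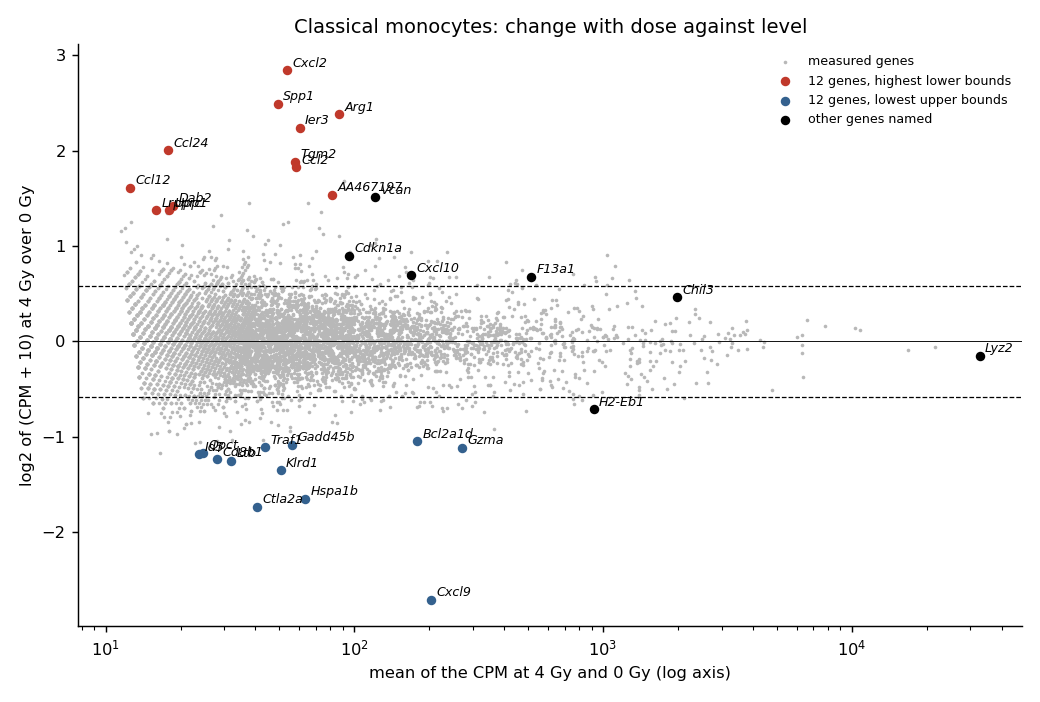
Each point is 1 of 7189 measured genes in classical monocytes, by its mean CPM over both doses (log axis) and the log2 of (CPM + 10) at 4 Gy over 0 Gy, with dashed lines at 1.5-fold. The 12 genes with the highest lower bounds of the counting interval include Cxcl2 and Arg1, and the 12 with the lowest upper bounds include Cxcl9 and Hspa1b.

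Chemokines, the secreted proteins that call leukocytes into tissue, gave the largest ratios in both directions. Of 12 measured chemokine genes, 5 were at least 1.5-fold higher at 4 Gy (all measured genes, 4.40%) and 3 at least 1.5-fold lower (all measured genes, 2.49%), with the same 5 higher and 4 lower without the doubted cells. The other 15 genes of the list were under 30 UMIs. Cxcl2, a chemokine that attracts neutrophils, had 144 UMIs at 4 Gy (102 CPM) and 5 UMIs at 0 Gy (5.58 CPM), a ratio of 18.2 (7.64 to 57.0). Cxcl2, Cxcl9 and Cxcl10 lie on chromosome 5 (GRCm38, GENCODE genes 90903871 to 90905938, 92321347 to 92328079, and 92346638 to 92348889). Ccl2, the ligand of Ccr2, had 137 UMIs at 4 Gy (96.7 CPM) and 18 UMIs at 0 Gy (20.1 CPM), a ratio of 4.82 (2.94 to 8.37). Cxcl9, which attracts T cells through Cxcr3 and is a classic target of interferon gamma, had 66 UMIs at 4 Gy (46.6 CPM) and 323 UMIs at 0 Gy (360 CPM), a ratio of 0.129 (0.0977 to 0.169). Cxcl10, which binds the same receptor, went the other way, with 300 UMIs at 4 Gy (212 CPM) and 114 UMIs at 0 Gy (127 CPM), a ratio of 1.67 (1.34 to 2.09). The abundant chemokines Ccl6 and Ccl9 stayed between these, with ratios of 1.08 (0.985 to 1.19) and 1.23 (1.10 to 1.37).

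These chemokine counts came from a handful of cells, which makes the counting intervals too narrow. At 4 Gy, 120 of the 144 Cxcl2 UMIs lay in 2 of the 261 members, and 94 of the 137 Ccl2 UMIs lay in 2. At 0 Gy the 5 Cxcl2 UMIs lay in 5 of the 147 members. A single cell held 172 of the 323 Cxcl9 UMIs at 0 Gy, and the highest cell at 4 Gy held 22 of 66. With the highest cell of each library left out, the ratio was 12.3 for Cxcl2, 3.46 for Ccl2, 0.184 for Cxcl9 and 1.64 for Cxcl10. Of the 300 Cxcl10 UMIs at 4 Gy, 197 lay in 2 cells, and cells with Cxcl10 were 15 of 261 (5.75%) at 4 Gy and 14 of 147 (9.52%) at 0 Gy, a lower share at 4 Gy. The Ccl2 ratio without the doubted cells was 2.86, so part of its difference came from cells that go against the label. The share of members with a Cxcl2 UMI was 3.83% at 4 Gy and 3.40% at 0 Gy, below the 6.59% and 5.12% of B cells, which do not make it and had median depths of 2318 and 2820 UMIs, so no difference is read from that share of cells. For Ccl2 the shares were 7.28% and 8.16%, against 0.991% and 0.301% in B cells. Ccl24 and Ccl12, with 49 and 34 UMIs at 4 Gy and 1 UMI each at 0 Gy, had ratios of 31.0 (5.31 to 1250.1) and 21.5 (3.61 to 875), and 28 of the Ccl12 UMIs lay in 1 cell. Ccl2 and Ccl12 are close paralogs, so reads may be split between them.

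The promoters of 3 of these chemokine genes are shown because the summed UMIs of the neighbouring Cxcl9 and Cxcl10, each held mostly by a few cells, had ratios on opposite sides of 1, and Cxcl2 had the highest ratio of the 3. Each is the 250 bases before the RefSeq start, 5′ to 3′ on the gene's strand, from RefSeq (GRCm38.p6), with letters matched to a motif in capitals.
Cxcl9, chr5:92328080-92328329, minus strand: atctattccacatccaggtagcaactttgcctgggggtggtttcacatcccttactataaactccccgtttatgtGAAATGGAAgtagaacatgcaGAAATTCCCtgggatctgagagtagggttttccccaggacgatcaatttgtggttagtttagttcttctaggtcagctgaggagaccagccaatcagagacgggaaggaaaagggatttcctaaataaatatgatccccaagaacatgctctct
Cxcl10, chr5:92348890-92349139, minus strand: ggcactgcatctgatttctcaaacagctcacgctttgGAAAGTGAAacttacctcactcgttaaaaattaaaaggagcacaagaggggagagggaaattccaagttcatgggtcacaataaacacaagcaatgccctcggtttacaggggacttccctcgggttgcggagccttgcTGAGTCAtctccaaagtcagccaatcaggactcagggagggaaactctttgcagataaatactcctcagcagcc
Cxcl2, chr5:90903649-90903898, plus strand: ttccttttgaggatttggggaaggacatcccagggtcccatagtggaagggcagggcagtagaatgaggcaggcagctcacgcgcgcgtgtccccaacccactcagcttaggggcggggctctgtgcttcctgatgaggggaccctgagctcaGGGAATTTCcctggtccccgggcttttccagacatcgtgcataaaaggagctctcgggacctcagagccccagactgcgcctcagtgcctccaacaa
Both strands were searched for 4 motifs: the core of an interferon response element (ISRE, GAAANNGAA), an NF-kB site (GGGANTTTC), an AP-1 site (TGANTCA) and a GAS element (TTCNNNGAA), the last being a site of interferon gamma signalling. Cxcl9 held 1 ISRE core, beginning 175 bases before the start, and 1 NF-kB match on the other strand at 154 bases. Cxcl10 held 1 ISRE core at 213 bases and 1 AP-1 match at 74 bases, and Cxcl2 held 1 NF-kB match at 97 bases. No GAS letters were found in the 3 windows. Over 32851 promoter windows of the same length, 7.13% held the ISRE core, 0.941% the NF-kB letters, 6.75% the AP-1 letters and 7.02% the GAS letters. With A added at the end of the ISRE core and C at the end of the NF-kB letters, Cxcl9 held 0 matches to either, while Cxcl10 held 1 to the ISRE and Cxcl2 held 1 to NF-kB. A match is a string of letters and not a measured binding site. Sites that differ from the searched letters were not looked for. A window without a match, such as that of Cxcl10 for NF-kB, may therefore still hold such a site.

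Arg1 and Spp1 had most of their UMIs in a few members at 4 Gy. Arg1, the arginase that marks suppressive macrophages (chromosome 10, 24915221 to 24927484), had 216 UMIs in 13 of 261 members at 4 Gy (153 CPM) and 19 UMIs in 1 of 147 members at 0 Gy (21.2 CPM), a ratio of 7.20 (4.50 to 12.2). The share of members with Arg1 was 4.98% (2.68% to 8.37%) at 4 Gy and 0.680% (0.0172% to 3.73%) at 0 Gy, against 1.28% and 0.215% of B cells. Spp1, which encodes osteopontin, had 128 UMIs at 4 Gy (90.4 CPM) and 7 UMIs at 0 Gy (7.81 CPM), a ratio of 11.6 (5.46 to 29.4), with 6 cells at each dose holding a UMI. Those cells were 2.30% and 4.08% of members, against 2.39% and 1.08% of B cells, so no difference is read from the share of cells. The 3 highest cells at 4 Gy held 85, 24 and 16 UMIs. A single cell held 85 of the Spp1 UMIs at 4 Gy, and the ratio without the highest cells was 5.44 for Spp1. The same step could not give a ratio for Arg1, because all 19 of its UMIs at 0 Gy were in 1 cell.

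The Arg1-positive members stood apart from the other members at 4 Gy in several genes. The 13 cells held 125 of 128 Spp1 UMIs, in 3 of the 13, and 46 of 49 Ccl24 UMIs, 135 of 178 AA467197 UMIs, 74 of 137 Tgm2 UMIs, 70 of 144 Cxcl2 UMIs, and 39 of 59 Thbs1 UMIs. AA467197 is also known as Nmes1, Tgm2 encodes tissue transglutaminase, and Thbs1 encodes thrombospondin. These cells had 1941 CPM of Ly6c2 and 1088 CPM of Ccr2, against 1238 CPM and 992 CPM in the other 248 members. The rule required both genes. Lyz2 stood at 20170 CPM in them and 31600 CPM in the others, Vcan at 35.1 CPM and 193 CPM, and Apoe at 3625 CPM and 2457 CPM. Their median depth was 5746 UMIs, against 5274 UMIs in the others. The only Arg1-positive member at 0 Gy was the deepest cell of its group, with 15479 UMIs, and held 1 Ly6c2 UMI. These cells were singled out after their values were seen.

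Arg1, Spp1 and Ccl24 were also higher at 4 Gy outside the monocytes. In interstitial macrophages Arg1 stood at 934 CPM at 4 Gy and 117 CPM at 0 Gy, a ratio of 8.00 (6.25 to 10.4), and Spp1 at 1891 CPM and 789 CPM, a ratio of 2.40 (2.17 to 2.66). B cells, which do not make Arg1, had 50.7 CPM at 4 Gy and 0.575 CPM at 0 Gy, and their Spp1 was 98.3 CPM and 14.0 CPM. The part of free RNA and of doublets in the monocyte values was not tested.

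**Figure D3:**
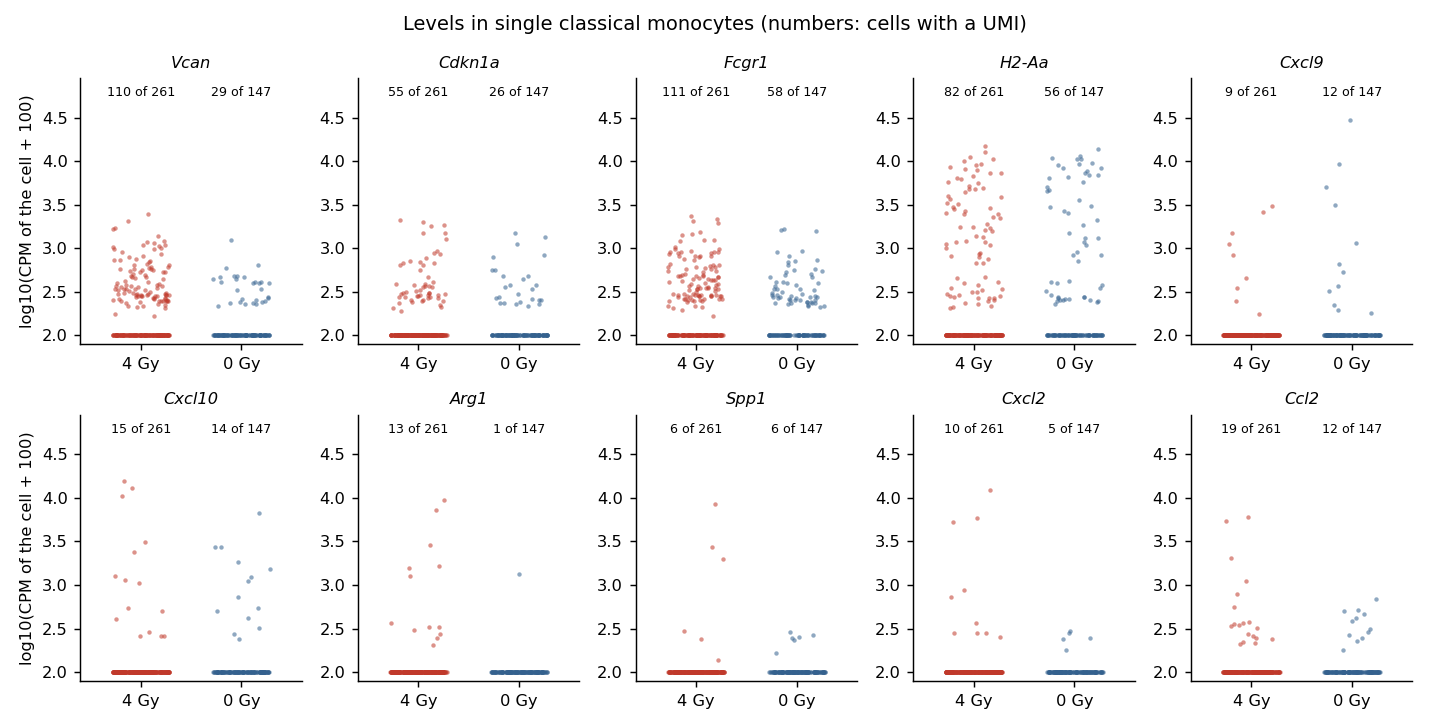
Level of 10 genes in each classical monocyte, as log10(CPM of the cell + 100), with 261 cells at 4 Gy on the left and 147 cells at 0 Gy on the right of each panel. Cells without a UMI lie on the line at 2, and the numbers give the cells with a UMI, 13 for Arg1 at 4 Gy and 1 at 0 Gy.

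Of 19 measured fibrosis and repair genes, 7 were at least 1.5-fold higher and 0 lower, with a median log2 ratio of 0.46 against 0.03 over all genes, and 7 were higher without the doubted cells too. Over all measured genes, 4.40% were higher. F13a1 and Vcan, which the rule used, are 2 of the 7, and Fn1 is a further gene of the rule in the list. Without these 3, 5 of 16 were higher and 0 lower, with a median of 0.44. Vcan stood at 184 CPM at 4 Gy and 58.0 CPM at 0 Gy, a ratio of 3.17 (2.34 to 4.35), and F13a1 at 633 CPM and 393 CPM, a ratio of 1.61 (1.42 to 1.83). Because Vcan admits cells to the class, these values are a description. Serpinb10, a serine protease inhibitor, stood at 141 CPM at 4 Gy and 80.3 CPM at 0 Gy, a ratio of 1.76 (1.34 to 2.34), and was found in 35.6% and 28.6% of members. Mmp8, a collagenase, stood at 81.9 CPM and 39.0 CPM, a ratio of 2.10 (1.43 to 3.16). Chil3, a chitinase-like protein abundant in monocytes, stood at 2292 CPM and 1662 CPM, a ratio of 1.38 (1.30 to 1.47). In B cells 9 of 26 measured genes of the fibrosis and repair list were higher and 0 lower, with a median of 0.49. Of all genes measured in B cells, 1.21% were higher. The part of free RNA in the monocyte values of this list was not tested.

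Of 29 measured suppressive and tumour-associated genes, 7 were at least 1.5-fold higher and 1 lower, with a median of 0.21. The shares over all measured genes were 4.40% and 2.49%. Without the doubted cells the counts were 6 and 0, of 28. Arg1, Spp1, Mmp8 and Thbs1 are counted in this list as well as in others. S100a9, an alarmin of neutrophils and young monocytes, stood at 38.8 CPM at 4 Gy and 16.7 CPM at 0 Gy, a ratio of 2.32 (1.29 to 4.42). It was found in 17.6% of members at 4 Gy and 6.80% at 0 Gy, against 14.8% and 7.36% of B cells, which do not make it, so no difference is read from its share of cells. The most abundant genes of the list, Wfdc17, Tgfbi and Pirb, had ratios of 1.02 (0.944 to 1.11), 1.36 (1.22 to 1.51) and 1.08 (0.941 to 1.23). In B cells 9 of 42 measured genes of the suppressive and tumour-associated list were higher and 0 lower, with a median of 0.24. Of all genes measured in B cells, 1.21% were higher. The part of free RNA in the monocyte values of this list was not tested.

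Of 22 measured macrophage maturation genes, 6 were at least 1.5-fold higher and 1 lower, with a median of 0.31. The shares over all measured genes were 4.40% and 2.49%. Without the doubted cells the counts were also 6 and 1, of 21. Lgmn, a lysosomal protease, stood at 155 CPM at 4 Gy and 98.1 CPM at 0 Gy, a ratio of 1.58 (1.22 to 2.04), and 1.49 without the doubted cells, when it was no longer past 1.5-fold and Ctsl, another lysosomal protease, was. Ms4a7, a membrane protein of macrophages, was lower, at 10.6 CPM and 23.4 CPM, a ratio of 0.452 (0.217 to 0.920). Apoe, the most abundant gene of this list, stood at 2527 CPM and 2890 CPM, a ratio of 0.875 (0.831 to 0.920). In B cells 9 of 31 measured genes of the macrophage maturation list were higher and 0 lower, with a median of 0.35. Of all genes measured in B cells, 1.21% were higher. The part of free RNA in the monocyte values of this list was not tested.

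Monocyte identity itself changed little. All 38 genes of that list were measured, 3 were at least 1.5-fold higher and 0 lower, and the median was 0.09. Over all measured genes, 4.40% were higher and 2.49% lower. Lyz2 had a ratio of 0.900 (0.887 to 0.913), Ifitm3 of 0.917 (0.887 to 0.949) and Plac8 of 0.994 (0.955 to 1.03). The 3 higher genes were Cd14, the coreceptor for bacterial lipopolysaccharide, at 115 CPM at 4 Gy and 65.8 CPM at 0 Gy, Fcgr1 and Thbs1. Fcgr1, the high-affinity receptor for IgG and a target of interferon gamma, stood at 212 CPM at 4 Gy and 132 CPM at 0 Gy, a ratio of 1.61 (1.30 to 2.01). It was found in 111 of 261 members (42.5%) and 58 of 147 members (39.5%), against 1.98% and 2.02% of B cells. Of 35 measured myeloid transcription factors Id3 and Relb were at least 1.5-fold lower, while the abundant Cebpb and Spi1 had ratios of 1.05 (0.974 to 1.13) and 1.07 (0.975 to 1.18).

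Nonclassical monocyte genes leaned lower at 4 Gy. Of 22 measured, 1 was at least 1.5-fold higher and 3 lower, the median log2 ratio was -0.29, and 5 had a ratio above 1. Over all measured genes, 4.40% were higher and 2.49% lower. The same 1 and 3 were past 1.5-fold without the doubted cells. Cx3cr1, the receptor that holds patrolling monocytes to the vessel wall, stood at 187 CPM at 4 Gy and 235 CPM at 0 Gy, a ratio of 0.795 (0.661 to 0.957). Nr4a1, the transcription factor that nonclassical monocytes need, stood at 86.1 CPM and 120 CPM, a ratio of 0.715 (0.547 to 0.935). Eno3 stood at 17.7 CPM and 46.8 CPM, a ratio of 0.377 (0.220 to 0.633). The share of members carrying 2 or more nonclassical markers was lower at 4 Gy as given above, and its part in these values was not tested.

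None of the 10 measured MHC class II genes, which present antigen to CD4 T cells, had a ratio above 1, and the median log2 ratio was -0.21. It was -0.10 without the highest cell of each gene and -0.11 under a stricter rule for members. H2-Eb1 stood at 692 CPM at 4 Gy and 1142 CPM at 0 Gy, a ratio of 0.606 (0.555 to 0.662), and it alone was past 1.5-fold. H2-Aa (chromosome 17, 34282744 to 34287823) stood at 1123 CPM and 1661 CPM, a ratio of 0.677 (0.630 to 0.727), H2-Ab1 at 1164 CPM and 1626 CPM, a ratio of 0.716 (0.667 to 0.768), and the invariant chain Cd74 at 3954 CPM and 5645 CPM, a ratio of 0.700 (0.674 to 0.728). The doubted cells held 19.5% of the H2-Aa UMIs at 4 Gy and 3.90% at 0 Gy. Without them 4 genes were past 1.5-fold, the median was -0.36, and the ratios of H2-Eb1, H2-Aa, H2-Ab1 and Cd74 were 0.475, 0.561, 0.567 and 0.604.

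Class II was carried by a minority of members at both doses. H2-Aa was found in 82 of 261 members at 4 Gy (31.4%) and 56 of 147 at 0 Gy (38.1%), and after thinning to 1000 UMIs in 21.2% and 25.9%. At least 10 H2-Aa UMIs were found in 37 members (14.2%) and 26 members (17.7%). B cells, which make class II, are no background for it. H2-Aa was lower in nonclassical monocytes too, at 671 CPM and 1509 CPM, and in neutrophils, at 290.0 CPM and 697 CPM. In interstitial macrophages it stood at 4645 CPM and 5120 CPM, and in type 2 dendritic cells at 6790 CPM and 6919 CPM. The differences between these classes were not tested. Class I genes leaned the same way as class II in classical monocytes, with 6 of 24 above a ratio of 1 and a median of -0.18, and B2m, H2-D1 and H2-K1 had ratios of 0.836 (0.788 to 0.887), 0.849 (0.808 to 0.892) and 0.837 (0.783 to 0.895). H2 genes are near-identical in places, so reads may be split among them.

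Interferon genes were near level or slightly lower. Of 54 measured type I interferon genes, 0 were at least 1.5-fold higher and 1 lower, Trim30d, with a median of -0.11 and 16 of 54 above a ratio of 1. Without the doubted cells 3 were lower and the median was -0.14. Ifi27l2a, an abundant interferon-induced gene, stood at 1799 CPM at 4 Gy and 2251 CPM at 0 Gy, a ratio of 0.799 (0.754 to 0.848). Bst2, the antiviral tetherin, stood at 295 CPM and 432 CPM, a ratio of 0.684 (0.594 to 0.787), and 0.777 without the doubted cells. Of 29 interferon gamma genes, 4 were higher (Cxcl10, Fcgr1, Fcgr4 and Upp1) and 1 lower (Cxcl9), with a median of -0.08. Over all measured genes, 4.40% were higher and 2.49% lower.

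A single p53 target was past 1.5-fold. p53 is the transcription factor that radiation activates, and its targets stop the cell cycle or start cell death. The host cells carry Trp53, which stood at 63.6 CPM at 4 Gy and 72.5 CPM at 0 Gy. Of 46 targets, 22 were measured, 1 was at least 1.5-fold higher and 0 lower, and the median log2 ratio was 0.03, the same as over all genes. Cdkn1a, the cell cycle inhibitor p21 (chromosome 17, 29090976 to 29100727), had 180 UMIs at 4 Gy (127 CPM) and 57 UMIs at 0 Gy (63.6 CPM), a ratio of 2.0 (1.48 to 2.74). It was found in 55 of 261 members (21.1%) and 26 of 147 members (17.7%), against 4.84% and 3.70% of B cells, all unthinned. After thinning to 1000 UMIs it was found in 5.41% and 5.44% of members. The higher level thus did not come with a higher thinned share of cells. The ratio was 2.13 without the highest cell of each library. Ccng1 had a ratio of 1.67 (0.884 to 3.35) and Mdm2, which degrades p53, of 1.46 (0.908 to 2.41), both intervals holding 1. Bax, which permeabilises mitochondria in cell death, stood at 199 CPM and 196 CPM, a ratio of 1.01 (0.837 to 1.23). Cdkn1a was higher in the other classes as well, with ratios of 3.80 (2.57 to 5.74) in type 2 dendritic cells, 1.61 (1.41 to 1.84) in neutrophils, 1.42 (1.20 to 1.68) in interstitial macrophages, 1.49 (0.951 to 2.38) in nonclassical monocytes and 2.22 (1.94 to 2.55) in B cells.

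Of 8 measured DNA damage genes only Gadd45b was past 1.5-fold, and it was lower. Of 14 measured cell cycle genes, 3 were higher and 1 lower, but 23 of the 28 Mki67 UMIs at 4 Gy lay in 1 cell, and without the doubted cells none of 11 was past 1.5-fold, 4 of 11 had a ratio above 1 and the median was -0.34, against 0.03 with them. Of 23 Bcl2 family genes, Bcl2a1d, which protects from cell death, stood at 113 CPM at 4 Gy and 244 CPM at 0 Gy, a ratio of 0.463 (0.375 to 0.570). Leaving out the doubted cells, Bcl2 was higher and Bcl2a1b also lower. The Bcl2a1 genes are near-identical copies, so their split is uncertain.

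Genes of the NF-kB feedback list leaned lower. The list holds inhibitors of NF-kB such as Nfkbia and also other genes, among them Relb, Cd83 and Bcl2a1d. Of 34 measured, 6 were at least 1.5-fold lower (all measured genes, 2.49%), 1 was higher (4.40%) and 7 had a ratio above 1. The median was -0.24, and 7 were lower and 1 higher without the doubted cells. Nfkbia, the inhibitor of NF-kB, stood at 256 CPM at 4 Gy and 333 CPM at 0 Gy, a ratio of 0.767 (0.656 to 0.896). Traf1, a signalling adaptor, stood at 24.0 CPM and 63.6 CPM, a ratio of 0.378 (0.239 to 0.588), and Relb, an NF-kB subunit, at 25.4 CPM and 48.0 CPM, a ratio of 0.530 (0.331 to 0.845). The exception was Ier3, an early response gene, at 106 CPM and 14.5 CPM, a ratio of 7.31 (4.14 to 14.0). Its 150 UMIs at 4 Gy lay in 32 cells, no cell holding more than 33, and its 13 UMIs at 0 Gy lay in 10 cells. The list also leaned lower in nonclassical monocytes (8 of 34 lower, 1 higher, median -0.22) and neutrophils (7 of 35 lower, 1 higher, median -0.29). It did not in interstitial macrophages (0 of 35 lower, 5 higher, median 0.09) or type 2 dendritic cells (1 of 29 lower, 1 higher, median 0.20).

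Early response genes moved both ways. Of 31 measured immediate early genes, 1 was higher and 4 were lower at 4 Gy (all measured genes, 4.40% and 2.49%). The median was 0.11, and 18 had a ratio above 1. The 4 lower genes were Dusp2, Gadd45b, Hspa1a and Hspa1b. Hspa1b, a heat shock chaperone, had 36 UMIs in 27 cells at 4 Gy (25.4 CPM) and 91 UMIs in 31 cells at 0 Gy (101 CPM), a ratio of 0.250 (0.165 to 0.372), and 0.255 without the highest cells. Its near-identical copy Hspa1a had a ratio of 0.403 (0.256 to 0.627). Hspa1b was lower in nonclassical monocytes (0.356, 0.191 to 0.636), neutrophils (0.320, 0.158 to 0.637) and B cells (0.338, 0.235 to 0.479) too. Heat shock genes respond to handling of the tissue, and the part of handling was not tested.

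Inflammatory cytokines were mixed. Of 28 measured, 4 were at least 1.5-fold higher and 2 lower (all measured genes, 4.40% and 2.49%). Il1b, the main secreted interleukin 1, had 354 UMIs in 73 cells at 4 Gy and 137 UMIs in 37 cells at 0 Gy. Its ratio was 1.64 (1.34 to 2.01). The 3 highest cells held 39.55% of the Il1b UMIs at 4 Gy and 44.53% at 0 Gy, so this interval is too narrow. Il1rn, the antagonist of the Il1b receptor, stood at 51.5 CPM and 23.4 CPM, a ratio of 2.20 (1.34 to 3.77). Osm, a cytokine of the IL-6 family, had 42 UMIs and 5 UMIs, a ratio of 5.32 (2.11 to 17.2), with 18 of the 42 in 1 cell. Tnf, at 15 UMIs and 20 UMIs, had a ratio of 0.475 (0.226 to 0.976).

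Of 39 measured innate sensing genes 5 were at least 1.5-fold higher and 0 lower, and 4 and 0 without the doubted cells, beside 4.40% and 2.49% of all measured genes. The median was 0.12, and -0.025 in members thinned to 1000 UMIs. Clec4n, a C-type lectin that binds fungal sugars, stood at 76.3 CPM at 4 Gy and 26.8 CPM at 0 Gy, a ratio of 2.85 (1.82 to 4.64). Of 30 measured chemokine receptor and migration genes 3 were higher and 0 lower, and 15 had a ratio above 1. The median was 0.05, close to the 0.03 of all genes. Without Ccr2, which the rule used, 3 of 29 were higher, 14 had a ratio above 1 and the median was -0.02. The 3 included Ccr1, a receptor for inflammatory chemokines, at 95.3 CPM and 44.6 CPM, a ratio of 2.14 (1.49 to 3.12). The complement receptors C5ar1 and C3ar1 had ratios of 2.12 (1.22 to 3.89) and 2.13 (1.15 to 4.18), and 12 of the 14 C3ar1 UMIs at 0 Gy lay in 1 cell. Without the doubted cells Itgax, an integrin of dendritic cells and monocytes, was also past 1.5-fold, and lower. Of 40 phagocytosis and Fc receptor genes 4 were higher and 0 lower, and 6 and 0 without the doubted cells.

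Of 12 measured neutrophil genes 4 were at least 1.5-fold higher, Lcn2, Mmp8, Prtn3 and S100a9, and 0 lower, with a median of 0.46. The shares over all measured genes were 4.40% and 2.49%. Without the doubted cells the counts were 6 and 0. In B cells 12 of 26 measured genes of the neutrophil list were higher and 0 lower, with a median of 0.52. Of all genes measured in B cells, 1.21% were higher. The part of free RNA in the monocyte values of this list was not tested. Prtn3, a serine protease of young myeloid cells, stood at 79.8 CPM at 4 Gy and 41.3 CPM at 0 Gy, a ratio of 1.93 (1.32 to 2.88), and was found in 22.99% of members at 4 Gy and 17.0% at 0 Gy, against 0.758% and 0.387% of B cells. Metabolic lists differed little. Of 21 glycolysis and hypoxia genes 1 was higher, Ndrg1, at 70.6 CPM and 30.1 CPM, with a ratio of 2.34 (1.52 to 3.73), and the median was 0.22. Of 31 antioxidant genes 2 were higher, among them Mt1, a metallothionein that binds metals, at 57.2 CPM and 21.2 CPM, a ratio of 2.70 (1.62 to 4.71). None of 22 lipid handling genes, 2 of 21 (Cpt1a and Hmgcs1, both lower) without the doubted cells, and 1 of 6 circadian clock genes, Per1, was past 1.5-fold. Of 11 CDK inhibitor and cyclin genes Cdkn1a was higher and Ccnd2 lower, the second only with the doubted cells.

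**Figure D4:**
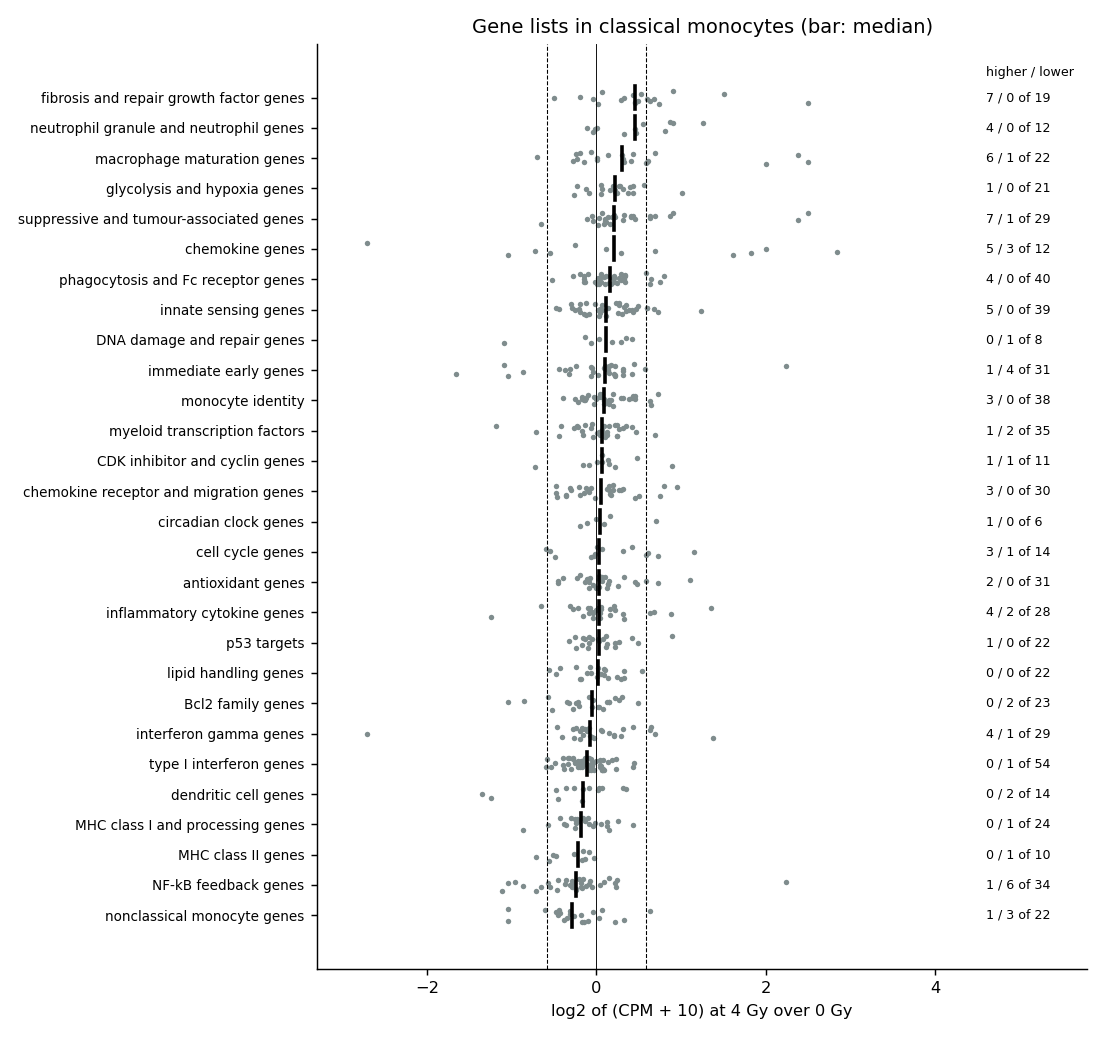
Log2 of (CPM + 10) at 4 Gy over 0 Gy for the measured genes of 28 lists in classical monocytes, 1 point per gene, with a black bar at the median and dashed lines at 1.5-fold. The numbers on the right give the genes at least 1.5-fold higher and lower of those measured, from 7 and 0 of 19 for fibrosis and repair to 1 and 3 of 22 for nonclassical monocyte genes.

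Some of the genes with the lowest ratios belong to lymphocytes. Gzma, Klrd1 and Cd8b1 had ratios of 0.447, 0.312 and 0.292 over all members. Without the doubted cells the Gzma ratio was 1.57 and the Klrd1 ratio was 0.784, while all 39 Cd8b1 UMIs at 0 Gy lay in the doubted cells. Gzma and Cd8b1 helped to pick the doubted cells, so their values here follow partly from that choice. Ctla2a, a protease inhibitor, held 61 UMIs at 0 Gy, 59.0% of them in the doubted cells, and its ratio was 0.197 (0.111 to 0.335), or 0.301 without them. Ltb, a cytokine of the lymphotoxin family, Id3, a transcription inhibitor, and Qpct, which modifies the start of peptides, had ratios of 0.302, 0.288 and 0.298, and 0.257, 0.285 and 0.133 without the doubted cells. Among the genes with the highest ratios, Lrpprc, which stabilises mitochondrial messengers, was spread most evenly, with 39 UMIs in 33 cells at 4 Gy and 4 UMIs in 4 cells at 0 Gy, a ratio of 6.17 (2.23 to 23.8), but its shares of 12.6% and 2.72% stood beside 7.60% and 7.23% of B cells. Upp1, which breaks down uridine, and Dab2, an endocytic adaptor, had ratios of 5.45 (2.16 to 17.6) and 5.70 (2.27 to 18.4), and 32 of the 45 Dab2 UMIs at 4 Gy lay in the 13 cells with Arg1.

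Across classes, the classical monocyte differences were shared for some genes and opposite for others. Ier3 was higher at 4 Gy in nonclassical monocytes (3.94, 2.36 to 6.94), interstitial macrophages (2.02, 1.52 to 2.72) and neutrophils (1.56, 1.45 to 1.69). Cxcl2 was higher in nonclassical monocytes (4.81, 3.32 to 7.17), with 206 UMIs at 4 Gy and 33 at 0 Gy, but stood at 4885 CPM and 5345 CPM in neutrophils, the highest level of the 7 classes, a ratio of 0.914 (0.882 to 0.947). Ccl2 had a ratio of 0.719 (0.544 to 0.955) in interstitial macrophages, and Cxcl10 one of 0.529 (0.460 to 0.608). Cxcl9 had a ratio of 0.854 (0.753 to 0.969) in interstitial macrophages and 0.524 (0.404 to 0.675) in type 2 dendritic cells. The differences between classes were not tested.

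**Figure D5:**
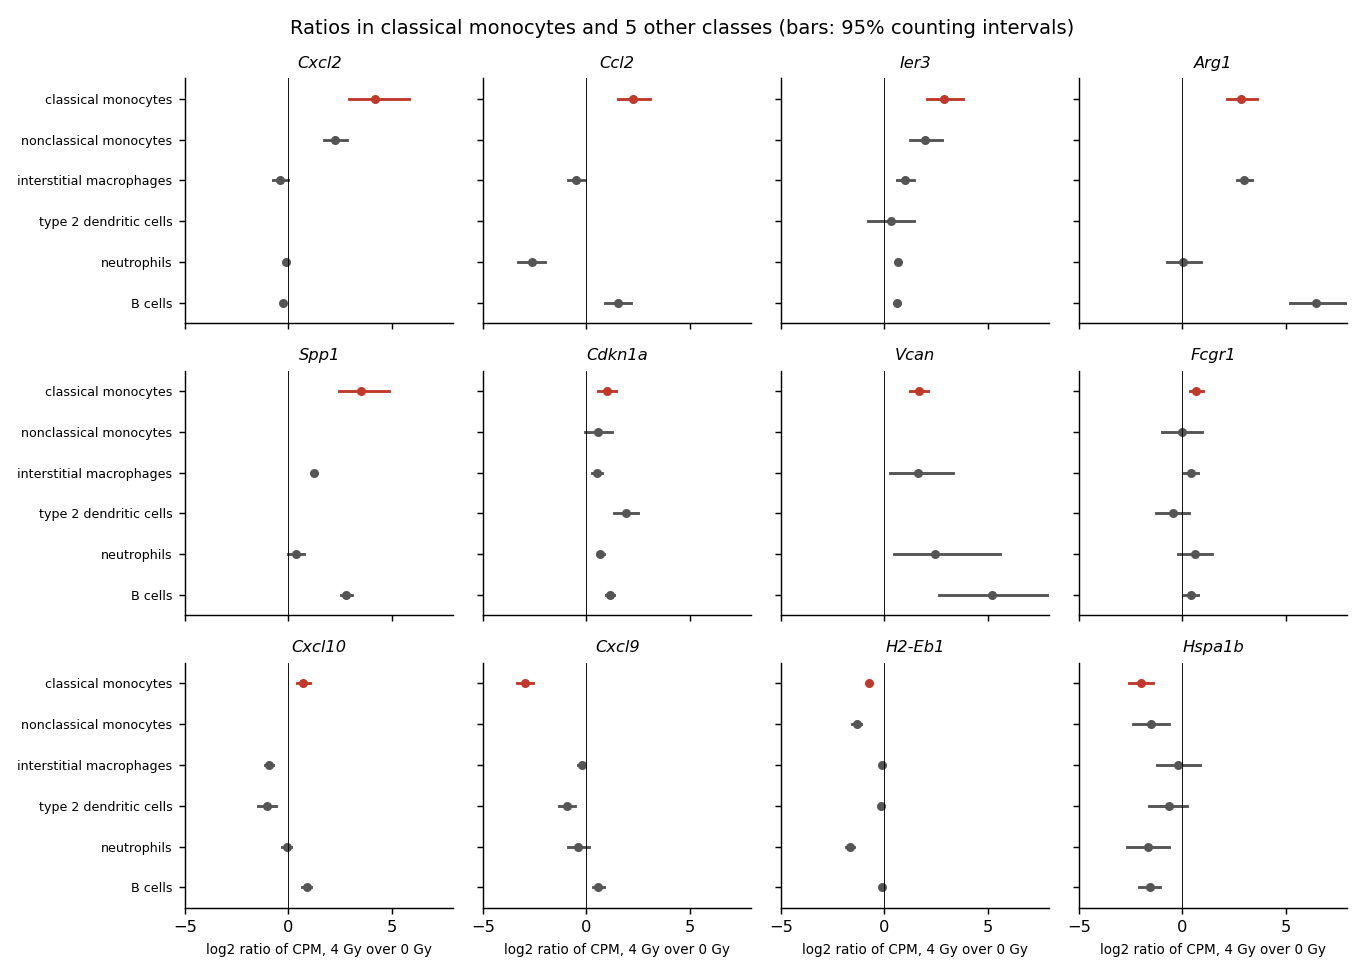
Log2 ratio of the CPM at 4 Gy over 0 Gy for 12 genes in classical monocytes (red) and 5 other classes (grey), with 95% counting intervals that end at the axis limits. Classes with under 30 UMIs of a gene are not drawn, and Cxcl9 lies lowest in classical monocytes with a ratio of 0.129.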

How the data were processed

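The authors deposited 1 table per library of log2 values, cells by 20640 genes. STAR, Partek, Seurat and the build mm10 are named, without role or version, per the submitters' processing notes. The values are log2(CPM + 1), and whole UMIs were recovered by dividing each cell by its lowest nonzero CPM, which gave at least 99.9993% whole values (tolerance 0.02). The design had been written for counts. The members and gene lists were chosen with earlier results of these data known.

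UMIs of members were summed per library and compared as CPM, with exact conditional binomial (ratios) and Clopper-Pearson (shares) 95% intervals in scipy 1.17.1, tested on simulated data. Log2 ratios used CPM + 10 and at least 30 UMIs. Scrublet (scanpy 1.11.5) scored doublets, its automatic threshold marking 608 barcodes at 4 Gy and 11 at 0 Gy (0.203%), where the 235 highest scores were used instead. Named genes were the 12 with the highest lower and the 12 with the lowest upper bounds, the 15 most abundant, and per list the 3 with most UMIs and up to 4 with the largest ratios, plus the rule genes. Other genes in the text were chosen after their values were seen. Clustering was not done. Results on some genes are not reported here.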

Additional observations from a re-analysis of the deposited data

Results flagged for a closer look

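In 9 cases a gene named above was past 1.5-fold in 1 direction in classical monocytes and past 1.5-fold in the other direction in another class, each with a counting interval without 1. The differences were not tested, since there was 1 library per dose. Ccl12 had a ratio of 21.5 in classical monocytes and 0.459 in interstitial macrophages. Ccl2 had a ratio of 4.82 in classical monocytes and 0.161 in neutrophils. Tgm2 had a ratio of 5.10 in classical monocytes and 0.482 in type 2 dendritic cells. Qpct had a ratio of 0.298 in classical monocytes and 1.73 in interstitial macrophages. Gzma had a ratio of 0.447 in classical monocytes, 6.93 in nonclassical monocytes and 1.74 in neutrophils. Id3, Klrd1 and Cd8b1 had ratios of 0.288, 0.312 and 0.292 in classical monocytes, and 2.29, 1.89 and 11.4 in type 2 dendritic cells. Among classical monocytes the doubted cells held 91.6% of the Gzma UMIs at 4 Gy and 97.6% at 0 Gy. They held 85.3% and 94.2% of the Klrd1 UMIs, and 72.2% and 100% of the Cd8b1 UMIs. Without the doubted cells the Gzma ratio was above 1, as given earlier. Gzma and Cd8b1 are on the list that helped to pick the doubted cells, so their shares follow partly from that choice.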

How the results depend on the processing

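No paired analysis was possible because there was 1 library per dose. The ratio of the shares stayed within its interval under the doublet, stricter, looser and myeloid settings and without the doubted cells, and was 1.24 with the rule applied to thinned barcodes. Genes at least 1.5-fold higher and lower numbered 649 and 396 with 1 CPM added, 51 and 20 with 50 CPM added, 494 and 293 with a minimum of 10 UMIs, 111 and 63 with 100 UMIs, and 511 and 323 with none, and were within 1.5 times of 316 and 179 under the other 8 settings. With members thinned to 1000 UMIs, 2195 genes were still measured, and 49 of the 316 and 26 of the 179 were called again. Genes that fell under the minimum could not be called. The MHC class II median was -0.37 with a minimum of 10 UMIs and with none, -0.11 under the stricter rule, -0.36 without the doubted cells and -0.10 without the highest cell of each gene, and the p53 median was 0.15 in thinned members. Among lists with medians at least 0.1 from 0, the sign changed for chemokine genes (-0.051, minimum of 10 UMIs), DNA damage genes (-0.013, mean CPM over cells, and -0.014 without members carrying Flt3, Retnlg, Ppbp, Pf4 or Hbb-bs) and innate sensing genes (-0.025, thinned). Medians within 0.1 of 0 changed sign in 27 cases, among them p53 targets (as low as -0.02), circadian clock genes (-0.035, minimum of 10 UMIs) and cell cycle genes (-0.34 without the doubted cells, -0.60 thinned). Ratios crossed 1 for Klrd1 (1.51), Gzma (6.10) and Ccl5 (1.27) under the stricter rule, Gzma (1.57) without the doubted cells and Cd8b1 (2.53) without the highest cell. Causes were not tested. Of the other named gene ratios and list medians under each setting, 261 and 287 stayed within the counting interval or 0.1 of the reported median, and 42 and 45 moved further. Leaving out doubted or highest cells was added after the data were seen. Scaling by the median of ratios brought the median of all genes to 0, against 0.03 as reported. Depth limits genes under 30 UMIs, and spread between mice was not measurable.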

Other observations

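Of 14 measured dendritic cell genes in classical monocytes, 0 were at least 1.5-fold higher and 2 lower, Klrd1 and Ltb, with a median log2 ratio of -0.16. Over all measured genes, 4.40% were higher and 2.49% lower. Without the doubted cells Itgax and Ltb of 11 were lower and the median was -0.29. Flt3, the growth factor receptor of dendritic cell precursors, had 25 UMIs at 4 Gy and 11 at 0 Gy, a ratio of 1.44 (0.683 to 3.24), and 0.690 without the doubted cells. Erap1, which trims peptides for class I molecules, had 17 UMIs at 4 Gy and 27 at 0 Gy, a ratio of 0.399 (0.204 to 0.759), spread over 17 and 20 cells. H2afz, a histone variant of dividing cells, stood at 89.7 CPM and 141 CPM, a ratio of 0.638 (0.495 to 0.823). The chemokine Ccl5, made mostly by lymphocytes, had 516 UMIs at 4 Gy and 548 at 0 Gy, a ratio of 0.596 (0.528 to 0.674). Of these UMIs, 444 at 4 Gy and 385 at 0 Gy lay in the doubted cells, which Ccl5 helped to pick.

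Havcr2, the inhibitory receptor Tim-3, stood at 36.7 CPM at 4 Gy and 19.0 CPM at 0 Gy, a ratio of 1.94 (1.10 to 3.57), with no cell holding more than 3 UMIs at 4 Gy. Hmox1, which breaks down heme, stood at 83.3 CPM and 52.4 CPM, a ratio of 1.59 (1.12 to 2.28), in 87 and 37 cells. Pkm, the last enzyme of glycolysis, stood at 719 CPM and 529 CPM, a ratio of 1.36 (1.22 to 1.52), and Slc16a3, a lactate exporter, at 85.4 CPM and 54.6 CPM, a ratio of 1.56 (1.11 to 2.23). Cxcl9 and Cxcl10 were found together in 3 members at 4 Gy, of 9 with Cxcl9 and 15 with Cxcl10, and in 5 members at 0 Gy, of 12 and 14.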
